A study of Mus musculus with 2 samples.

Results

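Notch signalling was described here through 10 genes, out of 43346 genes with an Ensembl identifier, in RNA from the whole midbrain of newborn mice. They are the receptors Notch1 and Notch2, the ligands Dll1, Dll3, Jag1 and Jag2, the DNA-binding factor Rbpj, and the target genes Hes1, Hes5 and Hey1. They were chosen by name, not by a threshold on a value, and each was found in both libraries. A further 62 genes of the pathway were described beside them. The series holds 1 group of 2 libraries at postnatal day 0, from strain B6NTac;B6NCrl/Lap, with males and females pooled and no treatment or mutation named. Replicate 1 came from 15 animals and replicate 2 from a pool whose size the labels do not state. The labels call the libraries independent isolates, made from ribosome-depleted total RNA by a protocol that keeps strand. With 1 group there is nothing to test, so levels, ratios within a library and differences between the libraries are given as measured.

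In the Notch pathway, a ligand on one cell binds a receptor on its neighbour, and gamma-secretase then cuts the receptor inside the membrane. The freed intracellular part enters the nucleus, binds Rbpj, which sits on DNA, and turns on target genes, many of them Hes and Hey repressors. In the developing brain these repressors hold back proneural genes and so keep radial glia and other progenitors from becoming neurons, while Notch in blood vessels guides sprouting and the coating of vessels by mural cells.

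The Hes5 promoter is shown first because Hes5 was the highest of the 10 genes and holds a 7-letter form of the core word that Rbpj reads, GTGGGAA. The 250 bases before the start of Hes5 lie at chr4:154960673-154960922 on the plus strand of GRCm38.p6, read from the RefSeq promoter table, and capitals mark the word on either strand.
Hes5 upstream: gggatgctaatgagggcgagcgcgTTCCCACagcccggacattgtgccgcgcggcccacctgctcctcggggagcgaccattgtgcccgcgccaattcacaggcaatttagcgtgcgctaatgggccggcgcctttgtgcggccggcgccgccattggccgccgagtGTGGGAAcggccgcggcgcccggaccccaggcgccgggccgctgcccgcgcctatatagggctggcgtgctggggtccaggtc
The word stood 226 bases before the start as its reverse complement and 83 bases before it on the strand of the gene. Other pathway genes that hold it include Hes7, Hey2 and Lfng, shown with 10 bases on each side to let the surroundings be compared.
Hes7 at -180, chr11:69120263-69120289, plus strand: ctcccctcacTTCCCACatttggggct
Hey2 at -207, chr10:30842974-30843000, minus strand: cgcggtggcaTTCCCACgcctctgcca
Lfng at -109, chr5:140607222-140607248, plus strand: cgtatcccacGTGGGAAggagagatct
The RefSeq table matched 8 of the 10 genes, with 10 promoters, and not Hes1 or Hey1. GTGGGAA on either strand was in 1 of those 8 genes, Hes5, and in 7 of 48 matched genes among the further 62. Besides the genes shown, these were Psen2, Rbpjl, Aph1a and Spen, and Hey2 holds a further copy at -4. In all, 5.42% of 32851 promoters in the table hold it within 250 bases before the start. Shares over the table are per promoter, while the 8 and 48 are genes, some with more than 1 promoter, so the units differ. The shorter core TGGGAA, which the longer word contains, was in 2 of the 8, Hes5 and Rbpj, and in 21.6% of all promoters. The N-box CACNAG, a word that Hes proteins bind, was in Notch1 and Notch2 and in 36.7% of all promoters. These matches describe letters in these windows and were not tied to a level.

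A second set of sequences is shown because the RNA assigned to it moved the deposited levels of 3 of the 10 genes, as given further on. Each is a 60-base stretch where a short annotated transcript without a coding role runs on into an intron of the main coding transcript. All are on the minus strand of GRCm38, from GENCODE release M21, with the exon of the coding transcript in capitals and its intron in lower case.
Dll1-202, chr17:15374930-15374989: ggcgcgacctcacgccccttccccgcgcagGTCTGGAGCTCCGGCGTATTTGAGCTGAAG
Dll3-203, chr7:28301654-28301713: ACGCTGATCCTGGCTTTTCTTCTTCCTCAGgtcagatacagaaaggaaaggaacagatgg
Notch1-202, chr2:26469688-26469747: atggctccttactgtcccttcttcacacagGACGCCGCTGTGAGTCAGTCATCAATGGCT
Of the 797 bases of Dll1-202, 656 lie in exons of the coding transcript Dll1-201 and 141 in its introns. Dll3-203 has 737 of its 855 bases in exons of Dll3-201, and Notch1-202 has 374 of 406 in exons of Notch1-201. Most of each short transcript is therefore shared with the coding one. Classes of transcript came from release M21, in which 31 of the 37 transcripts of the 10 genes had the length given in the files.

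All 10 genes were detected, meaning a TPM of at least 1 in both libraries, against 53.8% of 21474 protein-coding genes. TPM is the deposited transcript abundance, a count divided by effective length and scaled to a fixed total per library. It was read on 46685706 counts in replicate 1 and 72779229 in replicate 2. Protein-coding genes held 22.4% of the TPM in replicate 1 and 19.8% in replicate 2. A TPM of 1 is therefore a stricter mark here than on a scale of coding genes alone. The fewest counts behind any of the 10 were the 166 of Hes1 in replicate 1. Midbrain identity markers (En1, En2, Otx2, Pax5, Meis2) were detected in 5 of 5 cases, as were all 7 radial glia markers and all 6 endothelial markers. Hindbrain markers were detected in 0 of 5 cases, but the rule asks for both libraries. In replicate 2 the hindbrain markers Hoxb3, Hoxa5 and Hoxd3 had 1.68, 1.91 and 2.13 TPM, against 0.21, 0.02 and 0 in replicate 1. In a whole tissue, fewer cells that use a gene and less RNA per cell cannot be told apart.

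**Figure D1:**
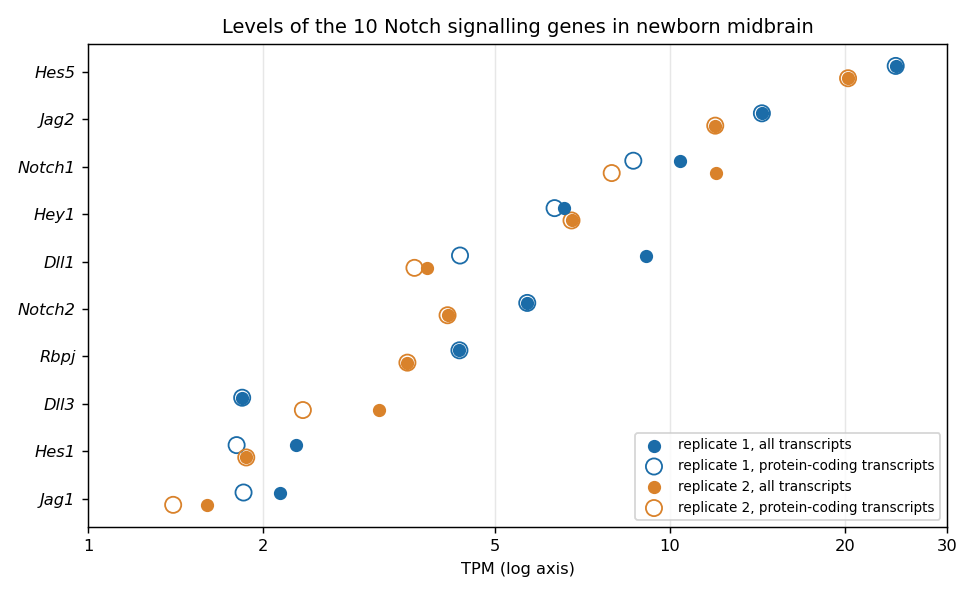
TPM on a log axis for each gene, from the highest mean at the top, with replicate 1 (blue) above replicate 2 (orange) on each line; filled points are the gene as deposited and open rings its protein-coding transcripts alone. Hes5 was highest in both libraries at 24.48 and 20.27, and the largest gap between filled points is that of Dll1, at 9.12 and 3.82.

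Among the receptors, Notch1 and Notch3 stood close to each other when protein-coding transcripts alone were counted, and Notch2 lay below them. Notch1, the receptor most studied in neural progenitors (ENSMUSG00000026923.11, chr2:26457903-26516663, minus strand), had 10.42 TPM in replicate 1 and 12.01 in replicate 2. The short transcript Notch1-202 was assigned 1.82 counts in replicate 1 and 50.49 in replicate 2. Those counts made 1.81% and 23.53% of the TPM of the gene. Counting only its coding transcripts gave 8.66 and 7.95, so that unscaled TPM was then higher in replicate 1. Unscaled TPM ran higher in replicate 1 over detected genes as a whole, by a median log2 ratio of 0.26. The scaled counts of Notch1 gave a log2 ratio, replicate 1 over replicate 2, of -0.16. Notch2 (ENSMUSG00000027878.10, chr3:98013527-98150361, plus strand) had 5.69 and 4.15 TPM, or 4.92 ± 1.09 (SD, n = 2), from its only quantified transcript, which is coding. The log2 ratio of Notch1 over Notch2 was 0.86 in replicate 1 and 1.51 in replicate 2, so it was 2-fold in one library only. On coding transcripts the mean ratio was 0.76 ± 0.23.

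Notch3, the receptor of mural cells that also occurs in progenitors, had 9.31 TPM in replicate 1 and 7.77 in replicate 2. Its log2 ratio to Notch1 was 0.39 ± 0.33 for Notch1 over Notch3, and -0.04 ± 0.10 on coding transcripts. Notch4, mainly a receptor of endothelial cells, had 1.88 and 8.10 TPM. That gap came with a 356-base noncoding transcript, Notch4-203, which had 0 counts in replicate 1 and 78.23 in replicate 2, where it made 89.42% of the TPM of the gene. Coding transcripts of Notch4 had 1.04 and 0.86 TPM. As shares of the TPM of the 4 receptors, coding transcripts gave Notch3 37.7% and 37.5%, Notch1 35.1% and 38.4%, and Notch4 4.21% and 4.15%, with Notch2 making up the rest.

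Jag2 led the Delta and Jagged ligands. It had 14.41 TPM in replicate 1 and 11.98 in replicate 2, or 13.2 ± 1.72 (ENSMUSG00000002799.5, chr12:112907819-112929776, minus strand). Jag1, the ligand used widely in vessels and in ventral progenitors, had the lowest mean of the 10 genes, with 2.14 and 1.60 TPM, or 1.87 ± 0.382 (ENSMUSG00000027276.7, chr2:137081456-137116644, minus strand). In replicate 1 Dll3 lay below it. The log2 ratio of Jag1 over Jag2 was -2.70 and -2.83, more than 2-fold the same way in both libraries. Jag2 made 50.8% of the deposited TPM of Dll1, Dll3, Dll4, Jag1 and Jag2 together in replicate 1 and 56.3% in replicate 2. On coding transcripts it made 61.9% and 59.7%.

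Dll1, the Delta ligand of young neurons and committed progenitors (ENSMUSG00000014773.9, chr17:15367354-15376872, minus strand), had 9.12 TPM in replicate 1 and 3.82 in replicate 2. The deposited bounds of its TPM reached 10.5 at the upper end in replicate 1 and 4.30 in replicate 2. Its counts, 1177 and 1719, gave a log2 ratio of 0.06 after scaling for depth, and its effective length was 1683 bases in replicate 1 and 3168 in replicate 2. The libraries thus differed in the length assigned to the gene and hardly in its reads. Dll1-202, annotated as a retained intron, took 125.65 counts in replicate 1, or 10.7% of those of the gene (Wilson 95% interval 9.06 to 12.6, counting error only). In replicate 2 it took 13.39 counts, or 0.779% (0.442 to 1.29). Being short, it made 34.77% of the TPM of the gene in replicate 1 and 4.78% in replicate 2. Coding transcripts alone gave 4.36 and 3.64 TPM. The lincRNA A930024N18Rik overlaps Dll1 on the other strand and held 142 counts in replicate 1 and 223 in replicate 2. Whether the authors' counting used strand is not given in the sources used here, so reads may have been shared between them. Transcripts on the other strand also overlap Notch1 and Hes5, with 22 counts at most in a library.

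Dll3, a Delta-like protein that acts inside the cell and dampens Notch rather than activating it in neighbours (ENSMUSG00000003436.11, chr7:28293553-28302238, minus strand), had 1.84 TPM in replicate 1 and 3.16 in replicate 2. It differed most between the libraries on counts, with 330 and 842, or a log2 ratio of -0.75. Dll3-203, a retained intron transcript, had 0 and 61.11 counts and made 23.68% of the TPM of Dll3 in replicate 2. The coding transcript Dll3-201 had 330 and 776.88 counts, and coding TPM was 1.84 and 2.34. The log2 ratio of Dll1 over Dll3 was 2.25 in replicate 1 and 0.27 in replicate 2 as deposited, and 1.20 and 0.62 on coding transcripts. Dll1 over Jag1 was 2.04 and 1.21, above 2-fold in both, and 1.19 and 1.32 on coding transcripts. With a pseudocount of 1 in place of 0.1 the mean ratio was 1.29 and the pair was no longer 2-fold apart in both.

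Rbpj, the only DNA-binding partner of the Notch intracellular part among the 10 (ENSMUSG00000039191.8, chr5:53466152-53657362, plus strand), had 4.35 TPM in replicate 1 and 3.54 in replicate 2, or 3.94 ± 0.573. Its counts, 1723.05 and 2576.45, gave a scaled log2 ratio of 0.02. Its 3 quantified transcripts are all coding, so a coding share of 100% was fixed, yet they were divided differently in the libraries. Rbpj-203 took 79.10% in replicate 1 and 43.21% in replicate 2, while Rbpj-202 took 0.02% and 50.40%. Rbpj-201 took 20.89% and 6.39%. The gene total hardly moved while the split between near-identical transcripts did. The processed pseudogene Rbpj-ps3, a near copy elsewhere in the genome, held 13.95 and 11.55 counts.

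Hes5 led the targets and all 10 genes. This repressor of proneural genes (ENSMUSG00000048001.7, chr4:154960923-154962371, plus strand) had 24.48 TPM in replicate 1 and 20.27 in replicate 2, from 1864 and 2855 counts, a scaled log2 ratio of -0.01. Its level was above that of 83.9% of detected protein-coding genes. Hey1, a related repressor used in vessels and in brain progenitors (ENSMUSG00000040289.4, chr3:8663359-8667256, minus strand), had 6.59 and 6.78 TPM, or 6.68 ± 0.134. Hes1, which oscillates in progenitors and is also driven by other signals (ENSMUSG00000022528.7, chr16:30064384-30067796, plus strand), had 2.28 and 1.87 TPM, above 10.6% of detected protein-coding genes. The 3 targets therefore stood well apart. Hes5 over Hes1 had a log2 ratio of 3.37 in both libraries, Hes5 over Hey1 of 1.88 and 1.57, and Hey1 over Hes1 of 1.49 and 1.80.

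Of the Hes1 level in replicate 1, 21.22% rested on 2 counts assigned to the short transcript Hes1-202, which had 0 counts in replicate 2. Hey1-201 carried 96.33% and 100% of Hey1, and Jag1-201 carried 86.43% and 87.62% of Jag1. Hes5 was assigned to 1 coding transcript of its 2 in both libraries. Jag2 and Notch2 have only 1 quantified transcript each, so their 100% was fixed in advance. A coding transcript led each of the 10 genes by mean share, and in 8 of the 10, Jag2 and Notch2 among them, it carried more than 50% in both libraries. For Jag2, Notch2 and Rbpj no other class could lead, since all their quantified transcripts are coding.

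**Figure D2:**
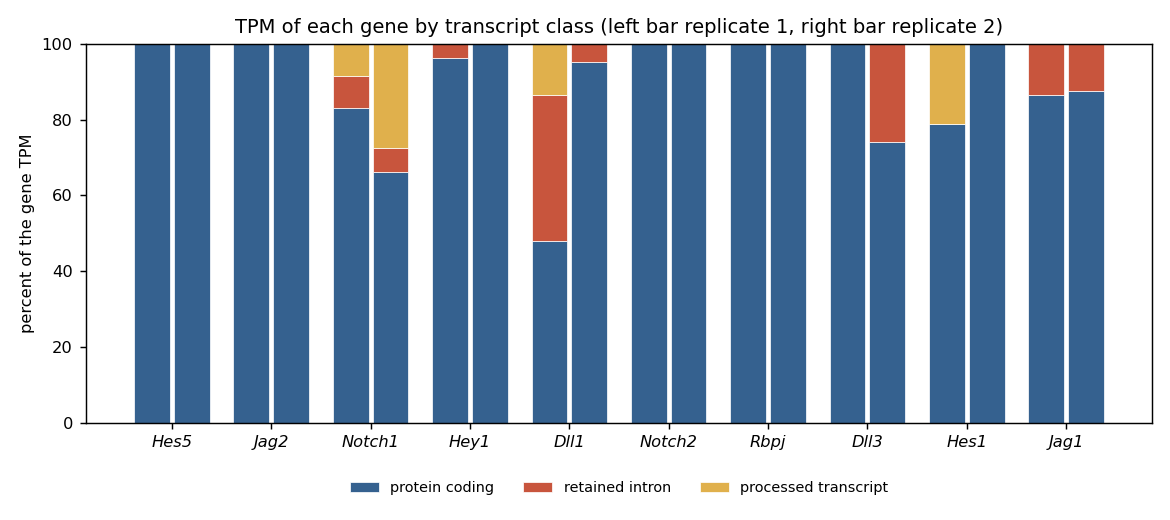
Percent of the deposited TPM of each gene by annotated transcript class, with replicate 1 as the left and replicate 2 as the right bar of each pair, from 0 to 100. Coding transcripts carried 47.8% of Dll1 in replicate 1 and 95.3% in replicate 2, 83.1% and 66.2% of Notch1, and 100% of Hes5, Jag2, Notch2 and Rbpj in both. Jag2, Notch2 and Rbpj have only coding transcripts, so their 100% was fixed.

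By mean TPM the order was Hes5, Jag2, Notch1, Hey1, Dll1, Notch2, Rbpj, Dll3, Hes1 and Jag1. No neighbours in that order, 0 of 9, were 2-fold apart the same way in both libraries, and 4 of the 9 neighbouring pairs changed order between them. Jag2 and Notch1 were one such pair, at 11.98 and 12.01 TPM in replicate 2. On coding transcripts those 4 pairs each kept the same direction in both libraries, with Jag2 over Notch1 at log2 ratios of 0.73 and 0.59. Dll1 then lay below Notch2 in both (-0.38 and -0.18), so the order itself changed. Hes1 over Jag1, steady as deposited, changed direction on coding transcripts (-0.04 and 0.39). Across all 45 pairs, 22 were at least 2-fold apart the same way in both, beside 57.3% of all pairs of detected protein-coding genes, and on coding transcripts 24 were.

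On counts the 10 genes differed little between the libraries. Scaled by TMM, their log2 ratios, replicate 1 over replicate 2, ran from -0.75 (Dll3) to 0.17 (Notch2), with 9 of 10 within 0.5 and a median of -0.01. None was 2-fold apart, against 1.44% of 12010 detected genes, of which the middle 90% lay between -0.59 and 0.49. Dll3 was the one gene outside that range. On deposited TPM, less the median log2 ratio of 0.26 over detected genes, 1 of the 10 was 2-fold apart, against 2.58% of 12011. That gene was Dll3 at -1.01, and Dll1 came next at 0.97.

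**Figure D3:**
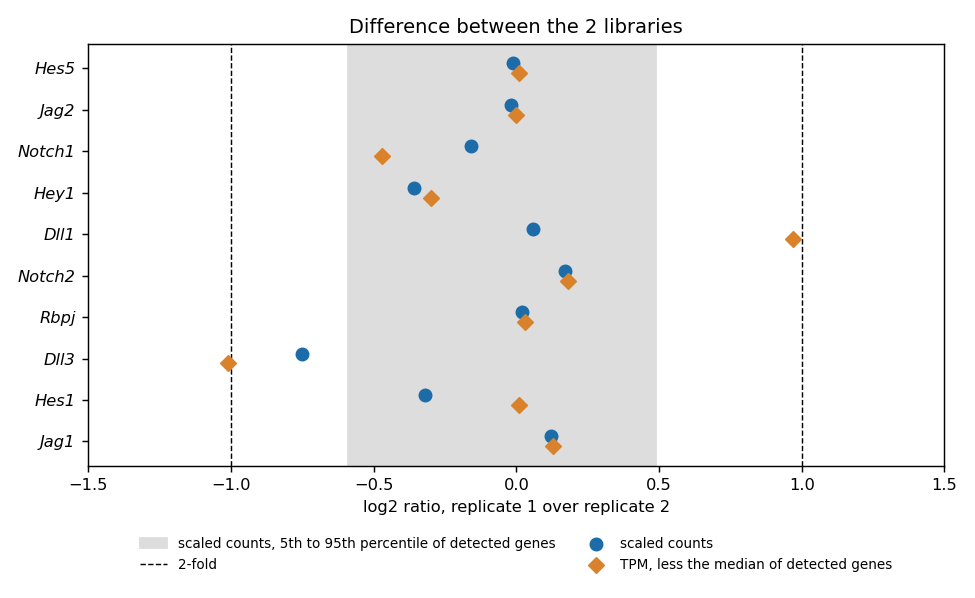
Log2 ratio of replicate 1 over replicate 2 for each gene, from scaled counts (blue circles) and from TPM less the median of detected genes (orange diamonds); the grey band holds the 5th to 95th percentile of scaled counts over detected genes and dashed lines mark 2-fold. For Hes5, Jag2, Hey1, Notch2, Rbpj and Jag1 the marks nearly coincide, while Dll1 moves between 0.06 and 0.97 with the unit and Notch1 between -0.16 and -0.47. Hes1 moves between -0.32 and 0.01, and Dll3 between -0.75 and -1.01, past the 2-fold line.

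Of the marker lists, 4 were lower in replicate 1 in every gene on scaled counts, the direction of Dll3. Dividing cell markers (5 of 5) had log2 ratios of -0.77 to -0.16, and their summed TPM was 34.71 in replicate 1 and 38.19 in replicate 2. Astrocyte markers (5 of 5) had log2 ratios of -0.96 to -0.03, with summed TPM of 118.8 and 129.6. Oligodendrocyte precursor markers (4 of 4) had log2 ratios of -0.77 to -0.16, with summed TPM of 56.66 and 62.52. Choroid plexus markers (5 of 5) differed most, at -3.78 to -0.19, and summed to 16.85 and 168.2 TPM, led by Ttr at 14.43 and 162.57. Hindbrain markers summed to 0.71 and 6.42 TPM, with Hoxd3 at 0 counts in replicate 1 and 174 in replicate 2. Their part in the Dll3 result was not tested.

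Across the further pathway genes, 48 of 62 were detected and 12 lay below 1 TPM in both libraries. On transcripts classed as coding 46 were detected, with Notch4 and Kdm5a lost, and for Kdm5a the classes were not checked, as given below. The ligand-like gene Dner, a transmembrane protein of neurons, was above all 10 chosen genes at 68.4 TPM in replicate 1 and 58.8 in replicate 2. Dlk2 had 12.82 and 12.25, and Dlk1 8.25 and 4.01 (4.71 and 3.51 on coding transcripts). Dll4, the ligand of sprouting endothelial tip cells, had 0.83 and 0.72, from 220 and 355 counts. Dll4 was the single undetected one of 4, with Dner, Dlk1 and Dlk2 all detected.

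Enzymes that add sugars to Notch were detected in 4 of 5 cases. Fringe enzymes alter which ligands a receptor answers to. Of these, Rfng had 18.43 TPM in replicate 1 and 19.45 in replicate 2, Lfng 11.62 and 10.18, and Mfng 1.46 and 0.84. Poglut1 and Pofut1, which start the sugar chains, were also detected, Poglut1 at 8.5 and 7.61 TPM (3.97 and 2.90 on coding transcripts) and Pofut1 at 5.16 and 3.45.

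Of the proteases that cut the receptor, 9 of 10 were detected, including every core subunit of gamma-secretase on the list apart from Aph1c (0.87 and 0.24). The catalytic subunit Psen2 had 6.51 TPM in replicate 1 and 5.89 in replicate 2. Ncstn, which takes in the substrate, had 16.81 and 12.89, Aph1a 16.72 and 16.48, and Aph1b 6.68 and 4.65. Psenen, the small subunit that activates the complex, had 13.65 TPM in replicate 1 and 23.07 in replicate 2, and its counts, 385 and 1204, gave a scaled log2 ratio of -1.04. It is 648 bases long in the files, with an effective length of 367.86 bases in replicate 1. Among the 58 further genes with enough counts, 5 were 2-fold apart between the libraries, and Psenen alone of these was detected in both. The share over detected genes was 1.44%. No share was computed over all genes with enough counts, so the 5 of 58 has no like background.

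All 12 genes of endocytosis and ubiquitin transfer were detected. The Deltex ubiquitin ligases Dtx3 and Dtx1 were highest, Dtx3 at 58.73 TPM in replicate 1 and 47.39 in replicate 2 and Dtx1 at 49.94 and 44.01. Mib1 and Mib2 are the ligases that make ligands able to signal. Mib2 had 25.11 and 21.15 TPM and Mib1 15.17 and 9.69. On coding transcripts they lay close together, with 12.15 and 11.19 TPM for Mib2 and 15.01 and 9.69 for Mib1. Numbl, which with Numb restrains Notch in dividing progenitors, had 23.61 and 26.90 TPM, and Numb 3.79 and 3.22. The ligase Neurl1b had 10.87 and 12.78.

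Nuclear partners of Rbpj were detected in 10 of 11 cases. The acetyltransferase Ep300 had 12.45 TPM in replicate 1 and 8.78 in replicate 2, and Snw1 had 7.97 and 5.82. Ep300 was the higher as deposited, but coding transcripts gave it 6.66 and 6.15 TPM, below Snw1 in replicate 1. Corepressors and chromatin enzymes included Hdac1 at 6.65 and 5.20 TPM (3.88 and 2.14 on coding transcripts) and Spen at 4.95 and 3.67 (2.59 and 2.02). Kdm5a had 5.97 and 2.56 TPM, of which transcripts classed as coding made 0 and 0.12. A transcript without a class in release M21 was left out of the coding sum, and whether Kdm5a has such transcripts was not checked. The Mastermind coactivators Maml1, Maml2 and Maml3, which complete the activating complex, lay between 2.36 and 3.80 TPM in replicate 1 and between 1.70 and 3.70 in replicate 2. The Rbpj relative Rbpjl, a gene of the pancreas, had 0 counts in replicate 1 and 19 in replicate 2. The Groucho corepressors, which Hes proteins recruit, were all detected. Tle3 had 17.55 and 17.38 TPM, Tle1 19.53 and 14.28, Tle4 14.42 and 9.87, and Tle2 7.59 and 5.73 (2.30 and 2.05 on coding transcripts).

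Other members of the Hes and Hey family ranged from the level of Hes5 to 0. Hes6, which acts against Hes1 and favours differentiation, had 22.49 TPM in replicate 1 and 21.81 in replicate 2. Nrarp, a target that feeds back on Notch, had 10.64 and 9.02, and Hey2 1.52 and 1.07. Heyl (0.62 and 0.93) and Hes7 (0.25 and 0.38) lay below 1 in both libraries. Hes3 had 2 counts in replicate 1 and 0 in replicate 2, and Hes2 had 0 in both, where up to 3 counts, or 0.065 CPM (counts scaled to a fixed library total) in replicate 1 and 0.0417 in replicate 2, could be missed by counting error alone. Of the summed deposited TPM of the 9 Hes and Hey genes, Hes5 made 42.0% and 38.2%, Hes6 38.6% and 41.1%, Hey1 11.3% and 12.8%, and Hes1 3.91% and 3.52%. On coding transcripts Hes5 led in both libraries, with 44.6% and 39.8%, against 36.2% and 38.8% for Hes6.

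Genes on the list of proneural and related factors were low, with 1 of 7 detected. Neurod1, a later factor of maturing neurons, had 0.75 TPM in replicate 1 and 3.04 in replicate 2, from 141 and 1056 counts, a log2 ratio of -2.30. Neurog2 had 0.21 and 0.42, Atoh1 0.07 and 0.50, Neurod4 0.10 and 0.14, Helt 0.01 and 0.04, and Neurog1 had 0 counts in both. Neurod1 was lower in replicate 1, as Dll3 was, and the part of the markers given with Dll3 was not tested for it either.

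**Figure D4:**
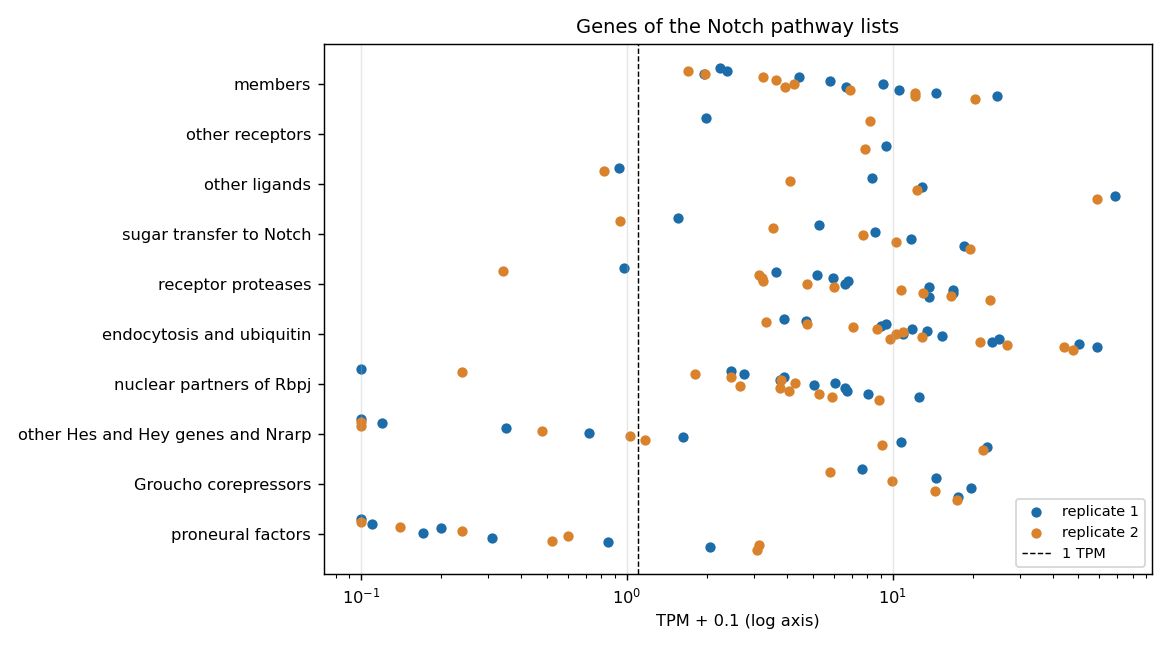
TPM + 0.1 on a log axis for every gene of each pathway list, 1 point per library (replicate 1 blue, replicate 2 orange), ordered by mean within a list; the dashed line marks 1 TPM. The 10 chosen genes, shown as members, and the endocytosis and Groucho lists lie wholly right of the line. Of the 7 genes on the list of proneural and related factors, 6 have at least 1 point left of it.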

How the data were processed

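RNA abundance was measured in 2 libraries of 1 group. Genes and transcripts were quantified on mm10 with GENCODE M4 by the authors, per the notes that accompany the samples. The aligner, the quantification program, its versions and its strand setting are not given in the sources for this text. Each deposited table holds expected counts (estimated counts, which need not be whole), TPM and FPKM, per the file headers, and FPKM was only an alternative here. The share of a gene assigned to each transcript (in percent) and the signal-like credibility bounds of TPM are the authors' deposited values.

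Symbols, classes and coordinates came from GENCODE M21 on GRCm38. Expected counts were rounded to whole numbers and scaled with edgeR 4.0.16 (TMM) in R 4.3.3 with genes below 10 summed counts left out, and with DESeq2 1.42.0 size factors, library totals and spike-in totals as alternatives. Lines that named no gene held 1.214% of counts in replicate 1 and 1.055% in replicate 2. The scaling was tested on simulated data. Ratios within a library used TPM + 0.1, and 2-fold was required the same way in both. Shares of counts carry Wilson 95% intervals. The libraries were not 1 library deposited again (chi-square 954101 on 18553 degrees of freedom over 18554 genes). The labels do not say that the animals of the pools differed, so spread between them may be partly technical.

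The members and lists were chosen with earlier results of these data known. The rule for naming took all 10 genes. It also took up to 6 genes of each further list by mean TPM, any gene below 1 TPM in both libraries, both genes of each pair, and each leading transcript with others of at least 20%. Numb and the Maml genes were named after their values were seen. Genes were not compared between groups, so no p-values were computed. The choice of coding transcripts for detection and for the difference between libraries was made after seeing the data. A planned comparison of Hes and Hey protein sequences was not made here. Some genes that the rule names are left out of the text.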

Additional observations from a re-analysis of the deposited data

How the results depend on the processing

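Of 148 alternative values, 138 kept their direction and side of the threshold or moved less than the spread. For the level of each single gene that outcome was fixed, since either of 2 values lies within their SD of their mean. Those levels, counted among the 138, therefore say nothing about stability. The median TPM of the 10 genes was 5.695, and 3.985 to 6.14 without either replicate. Requiring 5 TPM left 4 of the 10 genes and 30 of the 62 further genes, against 10 and 48 at 1 TPM. With TPM rescaled to protein-coding genes, 1 TPM left 10 and 54. With deposited TPM and no scaling, 1 gene, Dll1, was 2-fold apart between the libraries (log2 ratio 1.23), against 0 by scaled counts, and 3.15% of detected genes were, against 1.44%. Median use of the leading transcript was 88.21%, and 91.38% to 97.61% without either replicate. Notch1 over Notch2 had a log2 ratio of 1.51 in replicate 2 alone and Dll1 over Dll3 of 2.25 in replicate 1 alone, both then past 2-fold. Dll1 over Jag1 fell to 1.29 with a pseudocount of 1 and was no longer 2-fold in both libraries. On coding transcripts, an alternative chosen after seeing the data, 10 and 46 genes were detected and 0 differed 2-fold. No paired analysis was possible because the labels define 1 group. With 2 libraries, depth limits mainly the short transcripts, whose share of a gene can rest on few counts.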
